A study of Mus musculus with 18 samples.

Results

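The 10 genes described here mark macrophages and related myeloid cells: Adgre1, Csf1r, Mrc1, Cx3cr1, Itgam, Aif1, Tyrobp, Fcer1g, Cd163 and Lyz2. They were chosen by name, as a panel of identity genes, from the 55416 genes in the tables, with earlier results of these data known. All 10 were found and passed the filter on low counts. Their RNA was measured in the ovaries of 18 wild-type female Balb/c mice, 1 library per mouse, in 3 groups of 6. The aged Samul-tang group was 40 weeks old and was dosed orally with 2.5 g/kg Samul-tang, a decoction of several herbs, on 5 occasions a week over 4 weeks. The aged control group was also 40 weeks old and received distilled water, and the young control group was 8 weeks old and received distilled water. All 3 groups were superovulated: 5 IU of PMSG (the gonadotropin of pregnant mares) was followed after 48 hours by 5 IU of the human gonadotropin hCG, and tissue was collected 16 hours later, so no ovary without hormone treatment entered the study. Treated and untreated aged mice shared cages but were kept apart inside them. The comparisons ask what age and what Samul-tang did to the level of these genes in the whole ovary.

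Macrophages are the most abundant immune cells of the ovary, where they clear dying granulosa cells and regressing corpora lutea and take part in ovulation and tissue repair. Csf1r is the receptor through which Csf1 and Il34 keep macrophages alive, and the transcription factor PU.1, the product of Spi1, switches on many of the genes described here by binding purine-rich sites that contain GAGGAA. Adgre1, Aif1 and Csf1r are general macrophage markers, Mrc1 and Cd163 mark tissue-resident, scavenging macrophages, and Cx3cr1 is found on monocytes and some resident macrophages. Itgam, Tyrobp, Fcer1g and Lyz2 are shared with monocytes and, in part, with neutrophils and natural killer cells.

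Promoter sequence from RefSeq (build GRCm38.p6) was at hand for 7 of the 10 genes. The 4 windows below hold the 120 bases before the annotated start, 5′ to 3′ on the gene's strand, for the pair of genes that passed the test between groups (Mrc1, Lyz2), for the gene whose level followed Lyz2 most closely by rank (Fcer1g) and for the gene with the most GAGGAA matches in the window (Itgam). Capitals mark GAGGAA or its complement TTCCTC.
Mrc1: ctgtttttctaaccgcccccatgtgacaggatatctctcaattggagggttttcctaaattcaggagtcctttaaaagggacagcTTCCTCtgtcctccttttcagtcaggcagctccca
Lyz2: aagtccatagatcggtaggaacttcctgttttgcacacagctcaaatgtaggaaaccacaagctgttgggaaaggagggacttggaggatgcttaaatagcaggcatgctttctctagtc
Fcer1g: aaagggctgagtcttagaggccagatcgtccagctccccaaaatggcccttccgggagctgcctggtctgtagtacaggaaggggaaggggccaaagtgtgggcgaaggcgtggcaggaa
Itgam: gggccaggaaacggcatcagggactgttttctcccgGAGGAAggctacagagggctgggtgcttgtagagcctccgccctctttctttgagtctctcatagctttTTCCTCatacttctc
These windows lie at chr2:14229294-14229413 on the plus strand for Mrc1, chr10:117282273-117282392 on the minus strand for Lyz2, chr1:171234350-171234469 on the minus strand for Fcer1g and chr7:128062520-128062639 on the plus strand for Itgam. The 6 letters GAGGAA were searched on both strands of the 250 bases before each start and were present in 3 of the 7 members (Mrc1, Itgam and Aif1), against 7639 of 32851 promoters, or 23.3%. Mrc1 held 3 matches in those 250 bases, 1 of which is in the window shown, and Lyz2 and Fcer1g held none. The longer form GAGGAAGT was in 0 of the 7 members and in 2.44% of all promoters. A match is a description of letters and not a bound site. Only these forms were searched, so a promoter without a match may hold a purine-rich site of another form.

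Library totals, in units of 1000000 expected counts, were 14.2 to 20.35 for Samul-tang ovaries, 11.61 to 13.43 for aged control ovaries and 9.05 to 14.15 for young control ovaries. Every Samul-tang library was thus deeper than every library of both control groups, and a batch that goes with treatment cannot be told apart from it in either comparison. With all libraries thinned to the total of the smallest, Lyz2 and Mrc1 were again called between Samul-tang and young controls. In the other comparisons 0 members were. Composition differed too. The most abundant gene took 10.73 ± 3.13% of counts in Samul-tang ovaries, 15.45 ± 1.7% in aged and 14.53 ± 1.43% in young controls (SD, n = 6 each). Without that gene the same members were called. Mitochondrial ribosomal RNA took 1.18 to 2.17%, 2.12 to 2.56% and 2.24 to 3.01%, highest in young control 3. A pair of libraries stood apart from their groups: young control 3, which was also the smallest, and Samul-tang 6 had a mean correlation of 0.972 with the other libraries of their group, against 0.978 to 0.983 for the remaining 16. Both bear on several of the genes below, so results that rest on them are also given without them. The steroidogenic ovary markers Star, Cyp11a1 and Hsd3b1 were detected in every group, whereas Amh was too low to be tested. Of 9 tested markers of ovarian cell types, 6 were called between aged and young controls (Cyp11a1 and Hsd3b1 higher; Foxl2, Gdf9, Zp3 and Insl3 lower), 0 between Samul-tang and aged controls by edgeR (2 at an unadjusted p under 0.05, 1 by DESeq2), and 7 between Samul-tang and young controls, the same 6 genes in the same directions and Fshr lower. Gdf9, an oocyte gene, averaged 11.1 ± 2.35 CPM in Samul-tang ovaries, 10.1 ± 2.58 CPM in aged controls and 30.9 ± 4.92 CPM in young controls (SD, n = 6 each). Markers of other ovarian cell types therefore differed in the comparisons with young controls described below, and the part this had in the levels of the panel was not tested. In whole ovaries, fewer cells of a type and less RNA per cell cannot be told apart.

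Of the 10 genes, 2 were called between Samul-tang and young control ovaries and 0 in the other comparisons. Each edgeR count is given below beside the share over all genes. Levels are given as CPM, the counts in 1000000 after scaling of the library totals by the trimmed mean of M values (TMM); the assay reads 1 tag per transcript, so no division by length was made. Between aged and young controls, 0 of 10 passed the test (edgeR quasi-likelihood test with Benjamini-Hochberg adjustment over 16959 genes, called at an adjusted p under 0.05), where 11.3% of all genes did. Of the 10, 2 had an unadjusted p under 0.05, against 24.0% of all genes, DESeq2 also called 0, and 0 had groups without overlap, against 7.38% of all genes. Between Samul-tang and aged control ovaries, 0 of 10 were called, where 1.04% of all genes were (0.548% higher and 0.489% lower). Here 1 of the 10 had an unadjusted p under 0.05, against 16.9% of all genes, DESeq2 also called 0, and 0 had groups without overlap, against 1.53% of all genes. Between Samul-tang and young control ovaries, 2 of 10 were called, Lyz2 higher and Mrc1 lower, where 22.4% of all genes were called, and 5 had an unadjusted p under 0.05, against 33.9% of all genes. DESeq2 called 3 there, Lyz2, Mrc1 and Fcer1g. The 22.4% is the edgeR share, so the DESeq2 count cannot be read against it. In the other comparisons DESeq2 called more of the 16959 genes than edgeR. The counts were 2252 against 1912 for aged against young controls, and 663 against 176 for Samul-tang against aged controls. The members' median log2 fold change was 0.01 for aged over young controls, -0.02 for Samul-tang over aged controls and -0.09 for Samul-tang over young controls, against 0.01, 0.01 and 0.00 over all genes tested. The 3 comparisons share samples, so each is given by its own values.

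**Figure D1:**
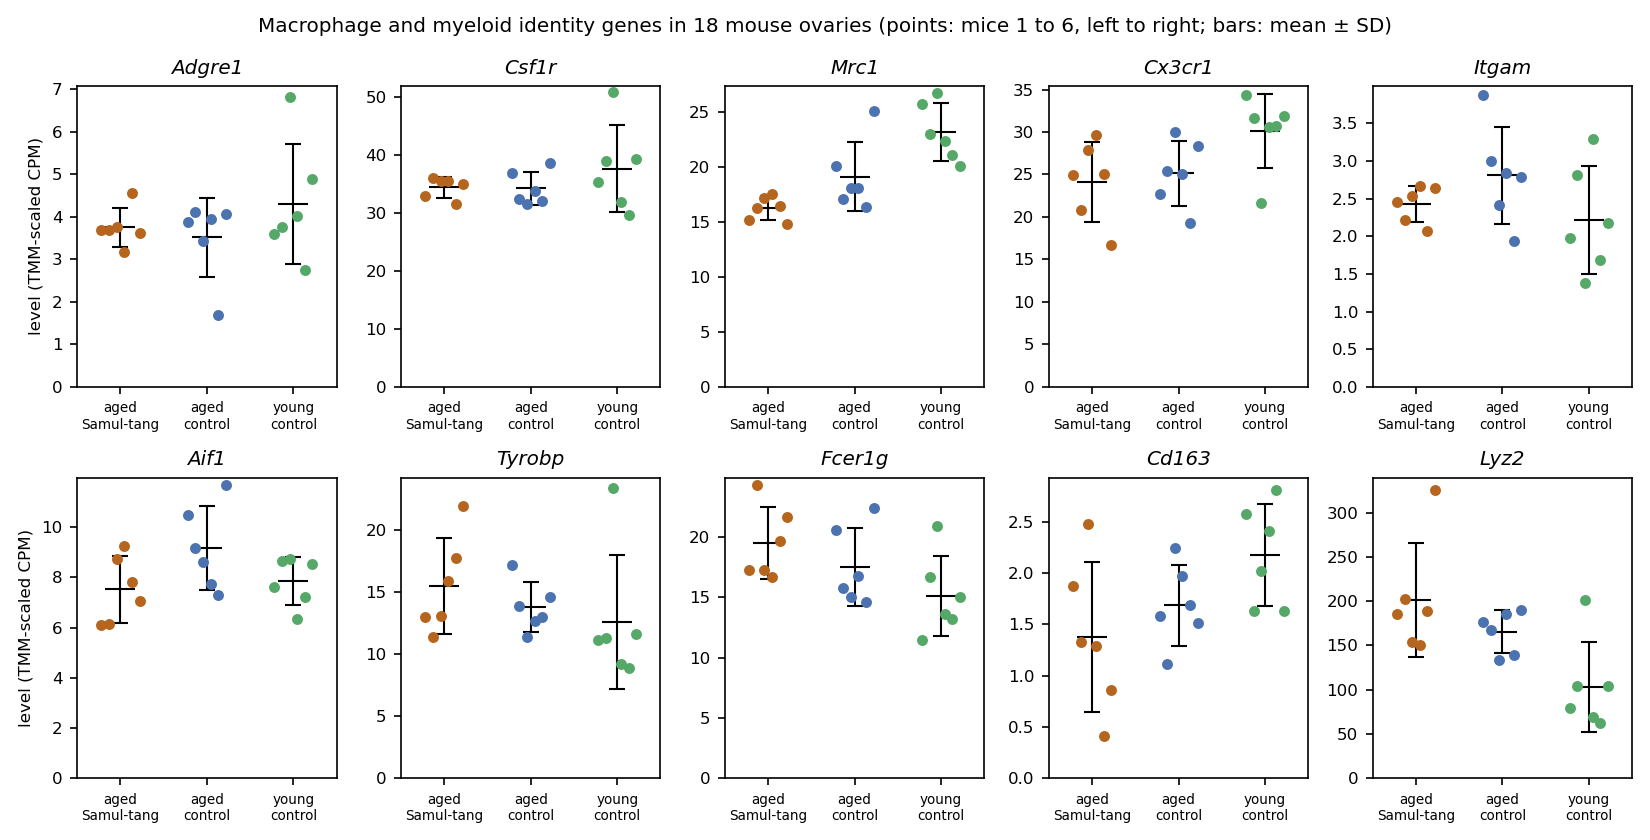
Level of each of the 10 genes in TMM-scaled CPM (y axis from 0) in the 18 ovaries. Points are mice 1 to 6 of a group from left to right, and bars give the mean ± SD. Mrc1 is lowest in the Samul-tang ovaries, without overlap with young controls, and Lyz2 is highest there, with young control 3 and Samul-tang 6 above the rest of their groups.

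Lyz2 encodes lysozyme M, a bacteria-digesting enzyme of macrophages, monocytes and neutrophils, and gave by far the most tags of the panel. Its level was 150, 187 and 326 CPM (lowest, median and highest) in Samul-tang ovaries, 134, 172 and 190 CPM in aged controls, and 62.8, 91.4 and 201 CPM in young controls. In words, 5 of 6 young controls lay below every aged ovary of either kind, and young control 3 alone lay among them. Lyz2 averaged 201 ± 64.6 CPM in Samul-tang and 103 ± 50.8 CPM in young control ovaries (SD, n = 6 each), a log2 fold change of 0.96 ± 0.26 (SE; edgeR adjusted p = 0.0157). Aged controls averaged 165 ± 23.7 CPM, a log2 fold change of 0.68 ± 0.26 over young controls that did not pass (95% interval 0.12 to 1.24; edgeR adjusted p = 0.115). Without young control 3 that difference was 0.98 and passed (edgeR adjusted p = 0.00596), so that 1 library decides the call for age. The difference between Samul-tang and young controls was 1.26 without young control 3 and 0.77 without Samul-tang 6, and passed both times. It missed the threshold when only the libraries of those 2 groups entered the fit (edgeR adjusted p = 0.0525). Between Samul-tang and aged controls the log2 fold change was 0.28 ± 0.26 (95% interval -0.27 to 0.83; edgeR adjusted p = 0.635). Its near-identical copy Lyz1 averaged 0.484 CPM in Samul-tang ovaries, 0.292 CPM in aged controls and 0.537 CPM in young controls, and was too low to be tested; how reads matching both copies were shared rests on the authors' counting, so the split between them is uncertain.

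Mrc1, the mannose receptor of resident macrophages, was the 1 gene of the panel for which a pair of groups, Samul-tang and young control, did not overlap. It stood at 14.8, 16.4 and 17.6 CPM (lowest, median and highest) in Samul-tang ovaries, 16.4, 18.1 and 25.1 CPM in aged controls, and 20.1, 22.7 and 26.8 CPM in young controls. All 6 Samul-tang ovaries lay below all 6 young controls, as was the case in either direction for 9.5% of all genes, while aged controls overlapped both groups. Means were 16.3 ± 1.1 CPM in Samul-tang and 23.2 ± 2.64 CPM in young control ovaries (SD, n = 6 each), and the log2 fold change of -0.51 ± 0.10 passed (95% interval -0.72 to -0.31; edgeR adjusted p = 0.000738). Aged controls averaged 19.2 ± 3.19 CPM. Neither step on its own was called: the log2 fold change was -0.27 ± 0.10 for aged over young controls (edgeR adjusted p = 0.0803) and -0.24 ± 0.10 for Samul-tang over aged controls (edgeR adjusted p = 0.224). Aged control 6, at 25.1 CPM, was the highest of its group, and without it the difference between aged and young controls was -0.37 and passed (edgeR adjusted p = 0.0105). On the deposited TPM scale, which divides by an effective length, Mrc1 averaged 4.37 ± 0.95 TPM in Samul-tang ovaries, 4.32 ± 0.53 TPM in aged controls and 5.46 ± 0.91 TPM in young controls, and the Samul-tang to young control difference of -0.27 on the log2(TPM + 1) scale did not pass (limma adjusted p = 0.106). The effective length given for Mrc1 differed between libraries, from 2796.17 to 4366.27 bases in Samul-tang ovaries and from 3545.65 to 4537.71 bases in young controls, whereas that of Lyz2 stayed between 1242.92 and 1244.82 bases in all libraries.

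Cd163, the scavenger receptor for haemoglobin bound to haptoglobin, was the sparsest member. It reached 0.415, 1.31 and 2.48 CPM (lowest, median and highest) in Samul-tang ovaries, 1.11, 1.64 and 2.24 CPM in aged controls, and 1.63, 2.22 and 2.81 CPM in young controls. These levels stand for 7 to 54 counts per library in Samul-tang ovaries, 13 to 26 counts in aged controls and 19 to 40 counts in young controls, and the 3 groups overlapped. No comparison was called; the largest log2 fold change was -0.65 ± 0.31 for Samul-tang over young controls (95% interval -1.29 to -0.00; edgeR adjusted p = 0.144). Leaving out Samul-tang 3, the highest of its group, gave -0.91 and an edgeR adjusted p of 0.0431.

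**Figure D2:**
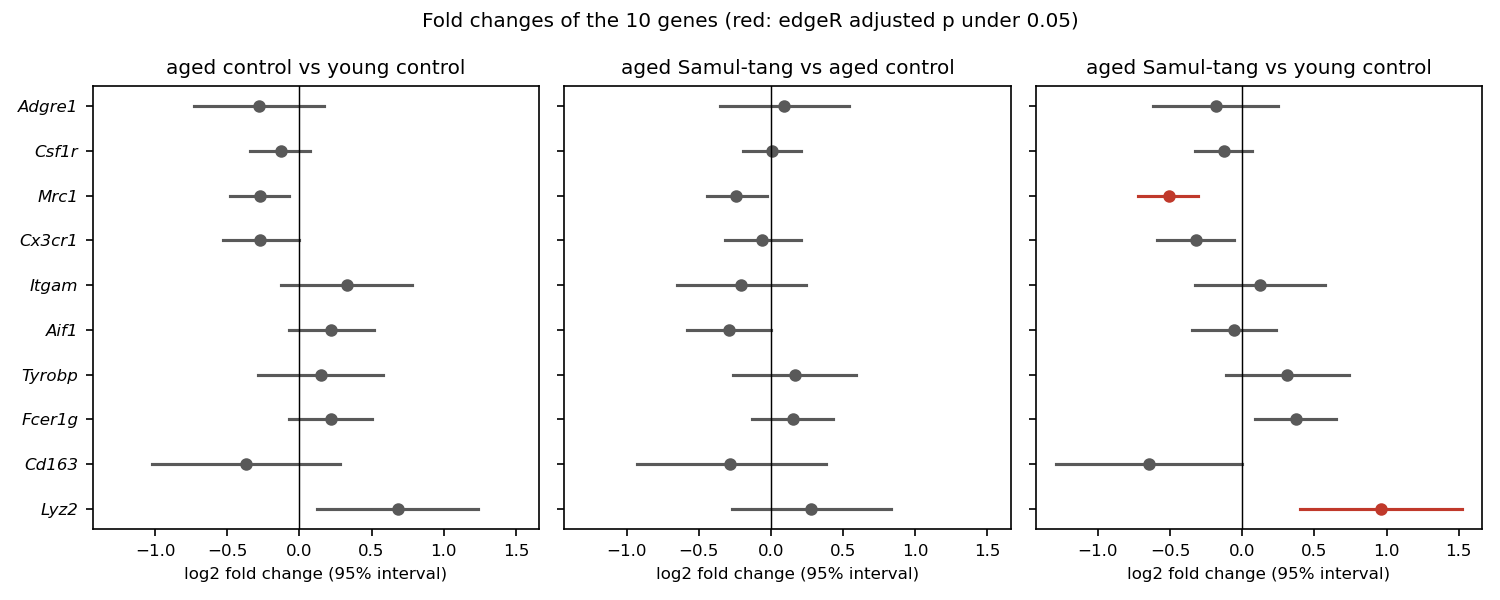
Log2 fold change of each of the 10 genes (x axis) in the 3 comparisons, with its 95% interval, the first-named group over the second. Points in red passed an edgeR adjusted p under 0.05: Mrc1 at -0.51 and Lyz2 at 0.96, both for aged Samul-tang over young control.

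Csf1r, the receptor for Csf1 and Il34, stood at 31.5, 35.2 and 36.1 CPM (lowest, median and highest) in Samul-tang ovaries, 31.6, 33.2 and 38.6 CPM in aged controls, and 29.7, 37.2 and 50.9 CPM in young controls, the last value being young control 3. The groups overlapped throughout. Its log2 fold change for Samul-tang over aged controls was 0.01 ± 0.10, with a 95% interval from -0.19 to 0.21 (edgeR adjusted p = 0.983), and for aged over young controls it was -0.13 ± 0.10, with a 95% interval from -0.34 to 0.07 (edgeR adjusted p = 0.435). Csf1, a ligand of Csf1r, averaged 7.54 ± 0.482 CPM in Samul-tang ovaries, 8.9 ± 1.1 CPM in aged controls and 7.0 ± 1.33 CPM in young controls (SD, n = 6 each). It was not called in any comparison; its log2 fold change for aged over young controls was 0.35 ± 0.13 (edgeR adjusted p = 0.0806), which passed in 2 of 28 alternative fits. Il34, the other ligand, averaged 15.1 ± 3.67 CPM in Samul-tang ovaries, 17.4 ± 1.52 CPM in aged controls and 16.1 ± 1.91 CPM in young controls and was not called either. Spi1, which encodes PU.1, averaged 4.21 ± 0.66 CPM in Samul-tang ovaries, 4.64 ± 0.782 CPM in aged controls and 4.32 ± 0.881 CPM in young controls, with no call.

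Adgre1 encodes an adhesion receptor that is the standard surface marker of mouse macrophages. Its level was 3.16, 3.69 and 4.56 CPM (lowest, median and highest) in Samul-tang ovaries, 1.69, 3.91 and 4.11 CPM in aged controls, and 2.74, 3.9 and 6.82 CPM in young controls. The 3 medians were close, and the range within controls was wider than any gap between the group medians. Aif1, an actin-binding protein of macrophages, had 6.09, 7.45 and 9.27 CPM in Samul-tang ovaries, 7.32, 8.88 and 11.7 CPM in aged controls, and 6.36, 8.07 and 8.74 CPM in young controls. Its log2 fold change for Samul-tang over aged controls, -0.29 ± 0.14, did not pass (95% interval -0.58 to 0.00; edgeR adjusted p = 0.304). Adgre1 and Aif1 were not called in any comparison or under any of the 28 alternatives.

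Cx3cr1, the receptor for the membrane-bound chemokine Cx3cl1, had 16.7, 24.9 and 29.6 CPM (lowest, median and highest) in Samul-tang ovaries, 19.3, 25.2 and 30.0 CPM in aged controls, and 21.6, 31.2 and 34.3 CPM in young controls. Of the young controls, 5 of 6 lay above every aged ovary of either kind, and young control 3 lay among them. The log2 fold change was -0.32 ± 0.13 for Samul-tang over young controls (edgeR adjusted p = 0.0739) and -0.27 ± 0.13 for aged over young controls (edgeR adjusted p = 0.211), and neither passed. Without young control 3 the Samul-tang difference was -0.40 and passed (edgeR adjusted p = 0.0195), and the age difference was -0.34 and did not (edgeR adjusted p = 0.0702). The ligand Cx3cl1 averaged 10.3 ± 2.31 CPM in Samul-tang ovaries, 9.87 ± 1.8 CPM in aged controls and 9.63 ± 2.1 CPM in young controls (SD, n = 6 each), with no call. In the annotation used for names, Cx3cr1 overlaps other genes on both strands, among them Wdr48 and Gorasp1. Csf1r overlaps Hmgxb3 on the opposite strand (mean 5.84 CPM), and Itgam overlaps Gm49368 on the same strand (mean 0.168 CPM). Csf1r and Mrc1 also overlap a microRNA gene each, at 0.0 CPM. Whether the counting used strand is not stated, so reads may be shared between these genes.

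Itgam encodes the alpha chain of complement receptor 3, whose beta chain is the product of Itgb2. Itgam was low, at 2.07, 2.49 and 2.66 CPM (lowest, median and highest) in Samul-tang ovaries, 1.93, 2.81 and 3.87 CPM in aged controls, and 1.38, 2.07 and 3.29 CPM in young controls. Groups overlapped, and the log2 fold change for aged over young controls was 0.33 ± 0.22 (95% interval -0.13 to 0.78; edgeR adjusted p = 0.398). Itgb2, which also pairs with other leukocyte integrins, averaged 3.9 ± 1.01 CPM in Samul-tang ovaries, 3.98 ± 0.9 CPM in aged controls and 2.55 ± 0.899 CPM in young controls (SD, n = 6 each). It was higher in Samul-tang than in young control ovaries, with a log2 fold change of 0.63 ± 0.22 (edgeR adjusted p = 0.0454), a call kept in 9 of 28 alternatives. For aged over young controls its log2 fold change of 0.66 ± 0.23 did not pass (edgeR adjusted p = 0.0651). That difference passed without young control 3, without Samul-tang 6, without both, and by DESeq2. The call for Samul-tang over young controls was kept without young control 3 and without both, but not without Samul-tang 6 alone.

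Tyrobp and Fcer1g encode the small ITAM adaptors through which receptors such as Trem2 and the activating Fc receptors signal. Tyrobp had 11.4, 14.5 and 21.9 CPM (lowest, median and highest) in Samul-tang ovaries, 11.4, 13.4 and 17.2 CPM in aged controls, and 8.84, 11.2 and 23.4 CPM in young controls. Of the young controls, 5 of 6 lay at or below 11.6 CPM, and young control 3 was the highest of all 18 ovaries. Its log2 fold change for Samul-tang over young controls was 0.31 ± 0.20 (edgeR adjusted p = 0.3), and without young control 3 it was 0.57 and passed (edgeR adjusted p = 0.00805). Fcer1g had 16.7, 18.5 and 24.3 CPM in Samul-tang ovaries, 14.6, 16.3 and 22.4 CPM in aged controls, and 11.5, 14.3 and 20.9 CPM in young controls. The groups overlapped, with the medians in the order Samul-tang, aged control, young control. For Samul-tang over young controls the log2 fold change was 0.37 ± 0.14 (95% interval 0.09 to 0.65; edgeR adjusted p = 0.0512), and it passed in 6 of 28 alternatives. Trem2, a lipid-sensing receptor that signals through Tyrobp, averaged 9.37 ± 2.67 CPM in Samul-tang ovaries, 8.23 ± 2.78 CPM in aged controls and 5.3 ± 1.88 CPM in young controls (SD, n = 6 each). It was higher in Samul-tang than in young control ovaries by a log2 fold change of 0.83 ± 0.24 (edgeR adjusted p = 0.0155), in all 28 alternatives, while the 0.65 ± 0.24 of aged over young controls did not pass (edgeR adjusted p = 0.0941).

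Without young control 3, 1 member was called between aged and young controls (Lyz2), and 5 were called between Samul-tang and young controls: Lyz2, Fcer1g and Tyrobp higher, Mrc1 and Cx3cr1 lower. Without Samul-tang 4, 4 were called between Samul-tang and young controls, with Cx3cr1 lower and Fcer1g higher besides Mrc1 and Lyz2. Without Samul-tang 6 the counts were 0 for aged against young controls and 2 for Samul-tang against young controls. With young control 3 and Samul-tang 6 both left out, a setting chosen after seeing the data, they were 3 (Lyz2 and Tyrobp higher, Cx3cr1 lower) and 5. Between Samul-tang and aged controls the count was 0 in all 28 alternatives. Over all genes, aged against young controls gave 1745 of 17111 called without young control 3 and 2203 of 17169 without Samul-tang 6. Without both, 2193 of 17029 were called. Between Samul-tang and young controls, 3090 to 3920 of all genes were called with 1 library left out. The member counts are to be read beside these.

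**Figure D3:**
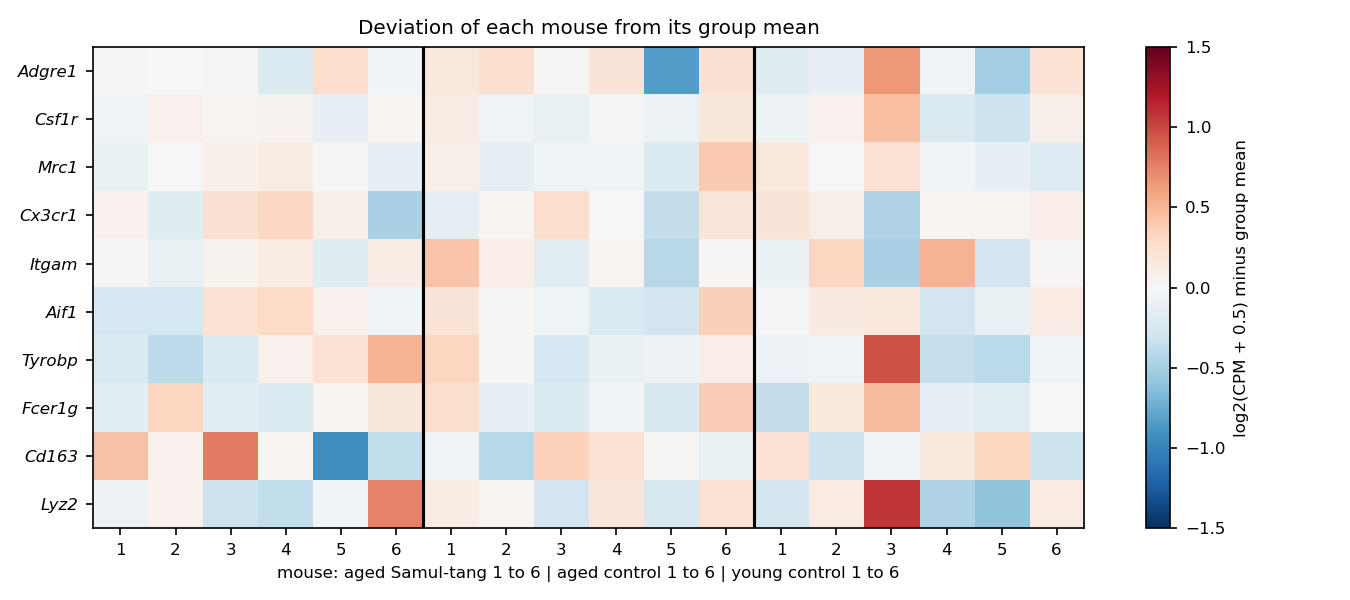
Deviation of each mouse from the mean of its own group in log2(CPM + 0.5) (colour) for the 10 genes (rows) and 18 ovaries (columns). Young control 3 is above its group for Lyz2, Tyrobp, Adgre1, Csf1r and Fcer1g and below it for Cx3cr1 and Itgam; aged control 5 is low for Adgre1.

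How the members varied among mice of the same group was measured after group means were removed from log2(CPM + 0.5), over 45 pairs of genes and 18 ovaries. The correlation was positive in 29 pairs, with a median Pearson r of 0.22, and 9 pairs passed an adjusted permutation p under 0.05 by Pearson's r and 6 by Spearman's rho (Benjamini-Hochberg over the 45 pairs). All points of a pair share a library, and thereby its depth. Fcer1g and Lyz2 varied together with r = 0.77 and rho = 0.79 (permutation p = 0.00059 and 0.00024, adjusted 0.0173 and 0.0108), and r was 0.67 without the 2 ovaries farthest from the median of Fcer1g. Csf1r and Fcer1g gave r = 0.74 and rho = 0.68 (permutation p = 0.00154 and 0.00518, adjusted 0.0173 and 0.0487), with r = 0.66 without the 2 farthest. Fcer1g thus followed both Csf1r and Lyz2 from mouse to mouse, but following other members was not particular to it. Csf1r and Aif1 also passed by both measures, with r = 0.54 and rho = 0.63. Their permutation p was 0.00753 and 0.00649 (adjusted 0.0398 and 0.0487), and r was 0.64 without the 2 farthest. Tyrobp and Lyz2 had the highest r, 0.83, with rho = 0.64 (permutation p = 0.00141 and 0.00813, adjusted 0.0173 and 0.052), and r fell to 0.51 without young control 3 and Samul-tang 6. Csf1r and Lyz2 gave r = 0.79 and rho = 0.69 (permutation p = 0.0011 and 0.00586, adjusted 0.0173 and 0.0487), with r = 0.50 without the 2 farthest. Cx3cr1 went the other way from Lyz2, with r = -0.67 and rho = -0.47 (permutation p = 0.00796 and 0.048, adjusted 0.0398 and 0.152), but r was -0.22 without young control 3 and Samul-tang 6, so that this relation rests on those ovaries. Tyrobp and Cd163 also went in opposite directions, with r = -0.47 and rho = -0.74 (permutation p = 0.0549 and 0.00173, adjusted 0.137 and 0.0389), which passed by rank alone, and r was -0.60 without young control 3 and Samul-tang 6.

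**Figure D4:**
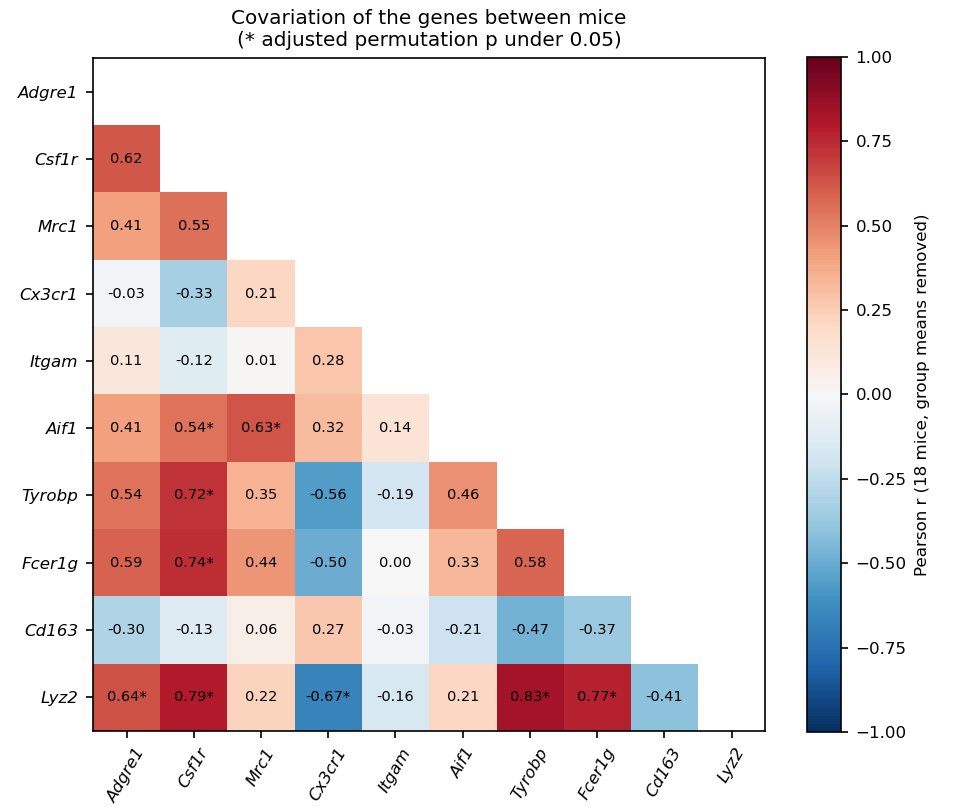
Pearson's r between each pair of the 10 genes over 18 ovaries, group means removed, as colour and number; stars mark an adjusted permutation p under 0.05. The highest value is 0.83 for Tyrobp and Lyz2, and the lowest of the starred pairs is -0.67 for Cx3cr1 and Lyz2.

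The tested genes outside the panel whose level followed it most closely were ranked by Pearson's r with the members' mean standardised deviation over the 18 ovaries, group means removed, as a description. Cfp, the complement activator properdin made by myeloid cells, came first with r = 0.87, followed by 1300002E11Rik with 0.84 and C1qb, a chain of complement C1q made by macrophages, with 0.81. Cybb, the catalytic subunit of the phagocyte oxidase, had r = 0.79. The remaining 6 of the first 10 were Zbtb14, Zfp943, Gm28048, Pptc7, Adamts10 and Gm11747, with r from 0.76 to 0.80. Without young control 3 and Samul-tang 6, Cfp had r = 0.90, C1qb 0.79 and Cybb 0.70.

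Other genes of the same pathways, in 8 lists, are read against 5.25% of all genes called higher and 6.03% called lower in aged than in young controls. The lists were written with earlier results of these data known, so their counts are a description and not an independent test. Among integrin and complement receptor partners, 4 of 10 tested genes were higher in aged controls and 0 lower, with a list median log2 fold change of 0.81 against 0.01 for all genes. They were C3, the central complement protein (30.2 ± 7.07 CPM in aged and 14.8 ± 2.79 CPM in young controls, SD, n = 6 each; edgeR adjusted p = 0.00928), Itgb7, Icam2 and Itgal; Icam2 passed in 20 and Itgal in 13 of 28 alternatives. Among CSF1 receptor ligands and signalling genes, 1 of 10 was higher, the adaptor Dok1 (21.5 ± 2.75 CPM in aged and 15.1 ± 1.8 CPM in young controls; edgeR adjusted p = 0.00362). Among myeloid transcription factors, 1 of 11 was higher, Nr1h3, the oxysterol receptor LXR alpha (12.7 ± 0.608 CPM in aged and 8.29 ± 1.58 CPM in young controls; edgeR adjusted p = 0.0011). Among partners of the ITAM adaptors and Fc receptors, 1 of 13 was higher, the Fc receptor gene Fcgr4 (past the threshold in 9 of 28 alternatives). Among 15 genes of the fractalkine and monocyte chemokine axis, 0 were called by edgeR and 1 by DESeq2, which called 2252 of all 16959 genes. At an unadjusted p under 0.05 were 5 of these 15, against 24.0% of all genes. Without young control 3, 4 lists had more genes called, all higher. The counts were 4 for the ITAM adaptor and Fc receptor list (Clec4n, Clec7a, Fcgr4 and Trem2) and 2 for the chemokine list (Ccl2 and Ccl6). They were 2 for the CSF1 receptor list (Csf1 and Dok1) and 7 for the pan-macrophage list below. In that fit the other lists kept their counts. The integrin and complement receptor list again had 4 higher, with Itgb2 in place of Itgal. Nr1h3 was again the 1 transcription factor, and the lysosomal list again had 2 higher. Over all genes, that fit called 805 higher and 940 lower of 17111, against 890 and 1022 of 16959 with all libraries. Of 13 scavenger receptor and resident macrophage genes, 0 were higher and 2 lower, also without young control 3. These were F13a1, a coagulation factor chain made by resident macrophages (4.23 ± 1.28 CPM in aged and 8.85 ± 2.72 CPM in young controls; edgeR adjusted p = 0.0119), and Lyve1, a hyaluronan receptor of resident macrophages and lymphatic vessels (5.67 ± 1.79 CPM in aged and 9.86 ± 1.58 CPM in young controls; edgeR adjusted p = 0.0126). Both passed in all 28 alternatives. Of 18 other pan-macrophage and leukocyte genes, 2 were higher, C1qa and the protease gene Ctss (in 16 and 13 of 28 alternatives). This list rose too without young control 3, to 7. Of 9 lysosomal genes, 2 were higher: Gpnmb, a glycoprotein of lipid-laden macrophages (40.5 ± 17.2 CPM in aged and 6.4 ± 4.84 CPM in young controls; edgeR adjusted p = 0.0049), and Lipa, the lysosomal acid lipase (83.1 ± 12.6 CPM in aged and 65.6 ± 2.73 CPM in young controls; edgeR adjusted p = 0.0132).

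**Figure D5:**
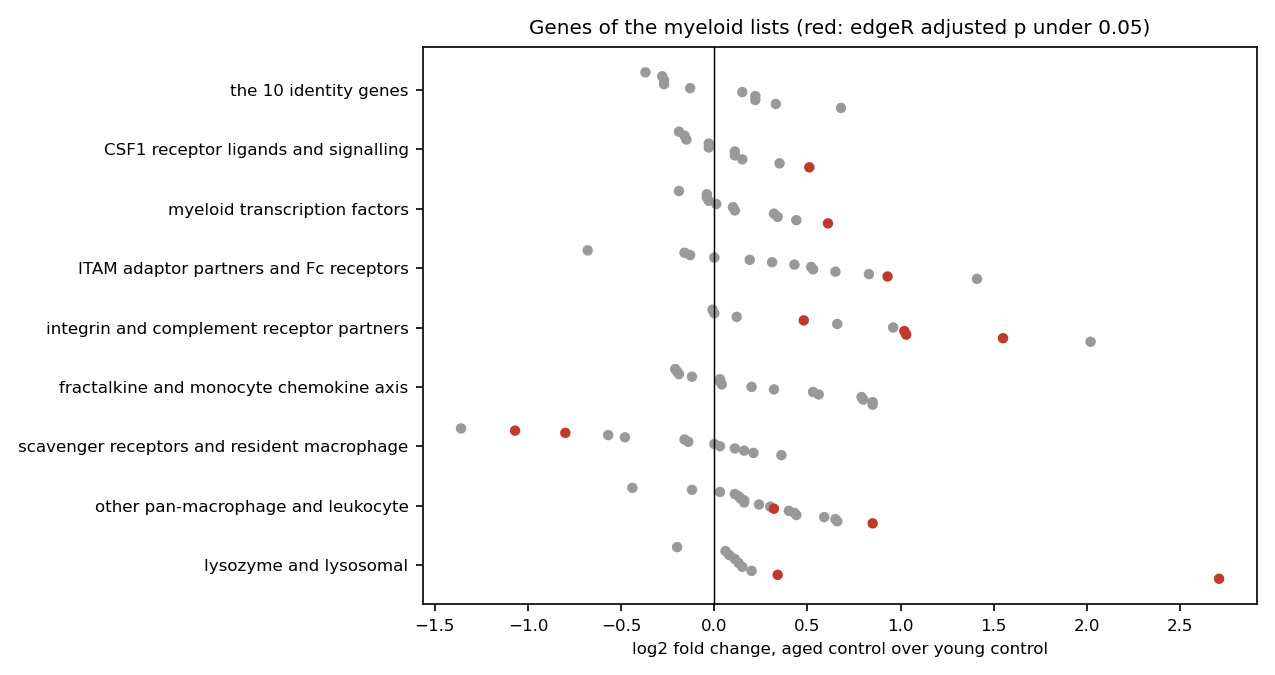
Log2 fold change of aged over young control ovaries (x axis) for every tested gene of the panel and of 8 related lists (rows); each point is a gene, red where the edgeR adjusted p was under 0.05. No point of the 10-gene panel is red, 4 of the integrin and complement receptor list are red on the right, and the 2 red scavenger and resident macrophage genes, F13a1 and Lyve1, are on the left.

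Between Samul-tang and aged control ovaries, 0 of the 99 tested genes of these 8 lists passed the edgeR test, where 1.04% of all genes did. At an unadjusted p under 0.05 were 12 of the 99, against 16.9% of all genes. DESeq2 called 4 of the 99 (Coro1a, Ctsb, Ctsl and Lamp2), and 663 of all 16959 genes tested. Against young controls, Samul-tang ovaries had 5 of 13 ITAM adaptor partners and Fc receptors higher and 0 lower, where 11.5% of all genes were higher and 10.9% lower: Trem2, Hcst, Fcgr4, Clec4n and Clec7a. Clec7a, the beta-glucan receptor Dectin-1, averaged 6.22 ± 2.35 CPM in Samul-tang and 2.83 ± 1.73 CPM in young control ovaries (SD, n = 6 each; edgeR adjusted p = 0.00573). Of 10 integrin and complement receptor partners, 5 were higher (C3, Itgal, Icam1, Itgb2 and Itgb7), and of 9 lysosomal genes, 5 were higher (Ctsb, Ctsd, Lamp2, Gpnmb and Lipa); of these 10, Itgb2, Itgb7 and Ctsd each passed in 9 of 28 alternatives and the other 7 in at least 27. Of 13 scavenger receptor and resident macrophage genes, 2 were higher and 1 lower. Hmox1, the haem-degrading enzyme, was higher, at 15.2 ± 2.13 CPM in Samul-tang and 10.5 ± 1.73 CPM in young control ovaries (edgeR adjusted p = 0.00408), as was Axl, a receptor for dying cells (edgeR adjusted p = 0.0452), which passed in 10 of 28 alternatives. Lyve1 was lower, at 5.77 ± 1.87 CPM in Samul-tang and 9.86 ± 1.58 CPM in young control ovaries (edgeR adjusted p = 0.00856), while F13a1, at 6.44 ± 2.72 CPM in Samul-tang ovaries, was not called (edgeR adjusted p = 0.219). Of 11 myeloid transcription factors, 1 was higher and 0 lower. This was Nr1h3, at 14.8 ± 1.68 CPM in Samul-tang and 8.29 ± 1.58 CPM in young control ovaries (edgeR adjusted p = 2.61e-05). Of 18 other pan-macrophage and leukocyte genes, 3 were higher and 0 lower, and of 15 chemokine axis genes, 1 was higher and 0 lower. Of 10 CSF1 receptor ligands and signalling genes, 1 was higher and 1 lower. Within the panel itself, Lyz2 was higher and Mrc1 lower in that comparison.

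Markers of other blood cells that share panel genes were read as summed levels. The summed level of 12 neutrophil genes ran from 5.77 to 24.8 CPM in Samul-tang ovaries, from 6.48 to 9.51 CPM in aged controls and from 7.09 to 16.5 CPM in young controls, with 0 of 4 tested genes called in any comparison by edgeR or DESeq2 and 0 at an unadjusted p under 0.05. Elane was at 0 in every library, Ly6g was at 0 in Samul-tang and young control ovaries, and Ngp was at 0 in both control groups. The highest neutrophil sums were in Samul-tang 3 and in young control 3. Lyz2 was 154 CPM in Samul-tang 3, below its group median of 187 CPM, and 201 CPM in young control 3, the highest of its group. Monocyte markers summed to 63.2 to 102 CPM in Samul-tang ovaries, 62.3 to 79.0 CPM in aged controls and 39.2 to 67.0 CPM in young controls, and T and natural killer cell markers to 9.96 to 12.5 CPM in Samul-tang ovaries, 6.84 to 14.1 CPM in aged controls and 3.58 to 8.84 CPM in young controls. Of 7 tested monocyte genes, 1 was higher in aged than in young controls (Gda), where 5.25% of all genes were. Without young control 3, 1 of 8 tested was higher, and it was Plac8 and not Gda. Between Samul-tang and young control ovaries 2 of 7 were higher (Gda and Plac8), where 11.5% of all genes were. The same 2 were called without young control 3. In both comparisons 0 were lower. The list was mixed: 4 of 7 log2 fold changes were positive for aged over young controls, and 3 of 7 for Samul-tang over young controls, with a median of -0.05. The monocyte and the T and natural killer cell sums had their lowest medians in young controls, as had Lyz2. Young control 3 and Samul-tang 6 were the highest of their groups in Lyz2 but the lowest in the monocyte sum, at 39.2 and 63.2 CPM. The T and natural killer cell sum was the highest of its group in young control 3, at 8.84 CPM, and the lowest in Samul-tang 6, at 9.96 CPM. The part of these cells in the level of Lyz2 was not tested. The sum of the 10 panel genes, with Lyz2 the main contributor, was 281, 308 and 450 CPM (lowest, median and highest) in Samul-tang ovaries, 247, 299 and 339 CPM in aged controls, and 181, 226 and 364 CPM in young controls.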

How the data were processed

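QuantSeq libraries, which yield 1 tag near the end of each polyadenylated transcript, were made from ovary RNA, per the labels' protocols. Reads were handled with RSEM 1.3.3, STAR 2.7.9a and FastQC 1.9 on GRCm39, per the submitters' processing notes, which give neither the annotation nor the strand setting. Each library came with expected counts and TPM values per gene, made by the authors with RSEM, per the file headers. RSEM divides reads among matching genes, so 87.4% of the deposited expected counts, not all, lay within 0.005 of a whole number. The deposited TPM values were divided by effective gene length by the authors, which does not suit 3' tags, and served only as an alternative.

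Expected counts were rounded, filtered with the edgeR default (count minimum 10, total minimum 15; 16959 genes left), scaled by TMM (factors 0.94 to 1.07) and tested two-sided with edgeR 4.0.16 in R 4.3.3 in 1 fit of all 18 libraries. Intervals are 95% and come from the fit. The procedure was tested on simulated data. TPM was tested with limma 3.58.1 on log2(TPM + 1) and log2(TPM + 0.1), and DESeq2 1.42.0 was a further alternative; 27 alternatives were planned and 1 was added after seeing the data. Correlations used 100000 permutations within groups. No pair of libraries agreed within sampling noise (lowest chi-square per degree of freedom 4.03 over 153 pairs). Depths of 9.05 to 20.35, in units of 1000000 counts, limit the precision of genes near 1 CPM. Gene symbols came from GENCODE for GRCm38 and matched 52083 of 55416 identifiers, with no coordinates carried over. The panel was given by name; from 16 further lists, up to 4 called genes with the smallest p were eligible to be named in each comparison, besides direct ligands and partners (Csf1, Il34, Cx3cl1, Itgb2, Trem2, Spi1, Lyz1) and the 10 genes most like the panel. Further called genes are named where a count of 5 or fewer is spelled out, and genes named for DESeq2 or for leave-out counts were picked after their values were seen. The members and lists were chosen with earlier results of these data known.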

Additional observations from a re-analysis of the deposited data

Results flagged for a closer look

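In 30 groups of 6 values (10 genes in 3 groups), 5 held an ovary whose gap to the rest exceeded Dixon's 95% limit as a share of the group's range; chance alone marks about 1 in 20 groups. Lyz2 was 326.0 CPM in Samul-tang 6, where the other 5 ovaries of the group had 150 to 203 CPM. Young control 3 accounted for 3 of the 5: Lyz2 was 201.0 CPM there against 62.8 to 104 CPM in the other 5, Tyrobp was 23.4 CPM against 8.84 to 11.6 CPM, and Cx3cr1 was 21.6 CPM against 30.6 to 34.3 CPM. Adgre1 was 1.69 CPM in aged control 5, where the other 5 had 3.44 to 4.11 CPM, and that ovary's mean standardised deviation over the panel, -1.07, was the lowest of the 18, with young control 3 the highest at 1.03.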

How the results depend on the processing

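Of 840 recomputed member fold changes, 807 kept their direction and their side of the threshold, 13 changed sign, 17 passed newly and 3 no longer passed. Members called between aged and young controls were 0, and 3 without young control 3 and Samul-tang 6; leaving out 1 library gave 0 to 1 (Mrc1 without aged control 6, Lyz2 without young control 3). Between Samul-tang and young controls 2 were called, 1 with only those groups in the fit (Mrc1), 1 on log2(TPM + 1) and 1 on log2(TPM + 0.1) (Lyz2 both times), 5 without both libraries, and 2 to 5 with 1 library left out (5 without young control 3, 4 without Samul-tang 4). All genes called between Samul-tang and aged controls numbered 176, but 45 with only those groups in the fit, 663 with DESeq2, 483 without both libraries, and 32 (without Samul-tang 3) to 593 (without Samul-tang 4) with 1 library left out; it moved by over 1.5 times without aged control 1 (99), 2 (102), 3 (78), 4 (72) or 6 (85), young control 3 (380), or Samul-tang 1 (60), 2 (105) or 5 (318) as well. On TPM + 1, 559 genes were higher and 1105 lower in aged than young controls, against 890 and 1022 on counts, and 1365 higher and 2010 lower in Samul-tang than young control ovaries, against 1954 and 1841.

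The 13 sign changes were all among values that were not called. Between Samul-tang and aged controls, Mrc1 was 0.00397 on log2(TPM + 1) and 0.0022 on log2(TPM + 0.1), with the effective lengths given above, and Cx3cr1 was 0.0279 without both libraries. With 1 library left out, Adgre1 ran from -0.0489 to 0.146, Csf1r from -0.0155 to 0.0439 and Cx3cr1 from -0.122 to 0.0282. Itgam was -0.00105 between Samul-tang and young controls without both libraries. For the other changes the cause was not tested.

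Same-numbered ovaries did not deviate together (0 of 6 pairs over 0.1 in each comparison). A replicate block gave 1756, 139 and 3535 genes called for aged against young, Samul-tang against aged, and Samul-tang against young controls, and 0, 0 and 2 members. Depth limits Cd163, Itgam and Adgre1, with as few as 7, 13 and 21 counts in a library.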

Other observations

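Of lymphocyte genes outside the myeloid lists, 1 of 5 tested T and natural killer cell genes (Trbc2) and 2 of 4 tested B and plasma cell genes (Igkc and Jchain) were higher in aged than in young controls, where 5.25% of all genes were; the remaining B and plasma cell genes had log2 fold changes below 0. Trbc2, the constant chain of the T cell receptor beta, averaged 2.69 ± 0.482 CPM in aged and 1.06 ± 0.458 CPM in young controls (SD, n = 6 each; edgeR adjusted p = 0.00184), and 2.83 ± 0.858 CPM in Samul-tang ovaries. Igkc, the kappa light chain of antibodies, averaged 8.56 ± 2.3 CPM in aged and 2.41 ± 1.73 CPM in young controls (edgeR adjusted p = 0.0183), without overlap between the groups, and 8.06 ± 5.23 CPM in Samul-tang ovaries. The summed level of 8 mast cell genes, nearly all of it Hdc, ran from 49.9 to 135 CPM in Samul-tang ovaries, from 55.3 to 74.8 CPM in aged controls and from 21.7 to 70.1 CPM in young controls, with no call.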
